A study of Homo sapiens with 6 samples.

Results

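Kinesins are motor proteins that hydrolyse ATP to walk along microtubules or to take their ends apart. Of the 22989 genes counted, 40 were kinesins, chosen by name alone: a symbol of Kif and a number with an optional letter a to c, or of Kifc and a number. They were divided by known role into 13 mitotic kinesins, 14 transport kinesins and 13 other kinesins. The family and its classes were set with earlier results of these data known. Kif1a was not analysed here, and Cenpe, a mitotic kinesin with a name of another form, was kept among the mitotic partners. Kif2a, which also acts in dividing cells, was kept among the other kinesins.

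Mitotic kinesins build the spindle, move and align chromosomes and complete cytokinesis, and their messenger RNAs are known to peak late in the cell cycle. Most transport kinesins carry vesicles, mitochondria, endosomes and messenger RNA toward the cell periphery, and many of the class are expressed through the whole cell cycle or in neurons. Paclitaxel (PTX), to which the cells studied are resistant, binds the microtubules on which all of these motors work.

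The RNA-seq set comprises 3 libraries of LINC00115 KD (knockdown) cells and 3 libraries labelled WT (here control). All were described as BCSC from PTX-resistant MDA-MB-231, a human triple-negative breast cancer line, and the study obtained such stem-like cells by sorting for high aldehyde dehydrogenase activity. The knockdown was made with short hairpin RNA (shRNA) against the long non-coding RNA LINC00115, and the study compares such cells with cells that carry a control shRNA, whereas the labels give the genotype of the control libraries as WT. The study names 1 hairpin, sh115-2, for its RNA-seq comparison, whereas the descriptions of the KD libraries run from sh115-1 to sh115-3. The labels name no separate cultures, so p-values measure the spread between these libraries, which may be technical.

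The libraries held 36979221 to 38799331 counts. The table has 0 rows named LINC00115, so the knockdown could not be checked here and each direction rests on the labels. The samples are labelled human, but the symbols are those of mouse genes and include Kifc5b, Kap, Lyz2 and Dynlt1f, names of mouse genes with no human gene of the same name. Whether the counts come from a mouse annotation or from mouse RNA was not tested, so every level below is that of the gene as the table names it and may not be that of the human gene. Of 10 markers expected in this line and in stem-like cells, 9 were tested. In KD, 7 of them were higher (77.8%) and 0 were lower, beside 36.7% each way of all genes tested. Vim (3418 normalized CPM in control and 3736 in KD, means of 3 libraries), Axl (731 and 896) and Cav1 (93.1 and 122) were higher, as were the epithelial keratins Krt8 (472 and 752), Krt18 (129 and 236) and Krt7, which had 1 to 4 counts in control and 49 to 74 in KD. Cd44 (911 and 879) and Msn (967 and 990) did not pass, Aldh1a1 was low and higher in KD (0.327 and 1.16), and Aldh1a3 had at most 4 counts in any library. Markers of other tissues moved with the groups. The summed level of 10 lung genes rose from between 1.62 and 1.85 normalized CPM in the control libraries to between 73.4 and 84 in the KD libraries. Of the 10, 9 were tested and all 9 were higher (100%, beside 36.7% of all genes tested). Scgb1a1, Sftpc, Sftpb, Sftpa1, Sftpd and Scgb3a2 had 0 counts in every control library. For 10 kidney genes the sums were 16.8 to 19.6 and 41 to 45.2, and 6 of the 7 tested were higher (85.7%) and 1 was lower (14.3%). For 10 leukocyte genes they were 79.5 to 86.1 and 174 to 192, and 5 of 6 tested were higher (83.3%). Most of these sums came from Itgb2 (48 in control and 77.2 in KD, means) and S100a8 (33 and 95.2). Ptprc had 5 to 13 counts in every library and Cd3e had 0. The part of these tissues in the kinesin results was not tested. In bulk RNA, fewer cells of a type and less RNA per cell cannot be told apart.

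Of the 40 kinesins, all had a count in some library and 35 passed edgeR's filter on low counts. Values are given in normalized CPM, counts scaled by the TMM-adjusted library total to a common depth, which allow comparison of a gene between libraries but not of different genes. A kinesin passed the test where edgeR's quasi-likelihood test, adjusted over 13497 genes, gave p under 0.05. By this rule 19 kinesins were lower and 7 were higher in the KD libraries, and 9 did not pass. Of all genes tested, 36.7% were lower and 36.7% were higher, so a call in either direction was common. With a fold change over 2 as well, the threshold of the study, 4 kinesins were lower and 0 were higher, against 9.98% and 10.2% of all genes tested.

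The classes differed in the shares that passed, read beside 36.7% each way of all genes tested. All 13 mitotic kinesins were lower and 0 were higher, with log2 fold changes from −1.05 to −0.17 and a median of −0.58. Of the 14 transport kinesins, 6 were higher (42.9%, near the share of all genes), 3 were lower (21.4%) and 5 did not pass. Their median was 0.16. The 8 other kinesins tested had 3 lower (37.5%) and 1 higher (12.5%), with a median of 0.05. The median over all genes tested was −0.01. The median of the mitotic class lay 0.74 log2 units under that of the transport class (−0.74), a description without a test because genes are not replicates of a condition.

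**Figure D1:**
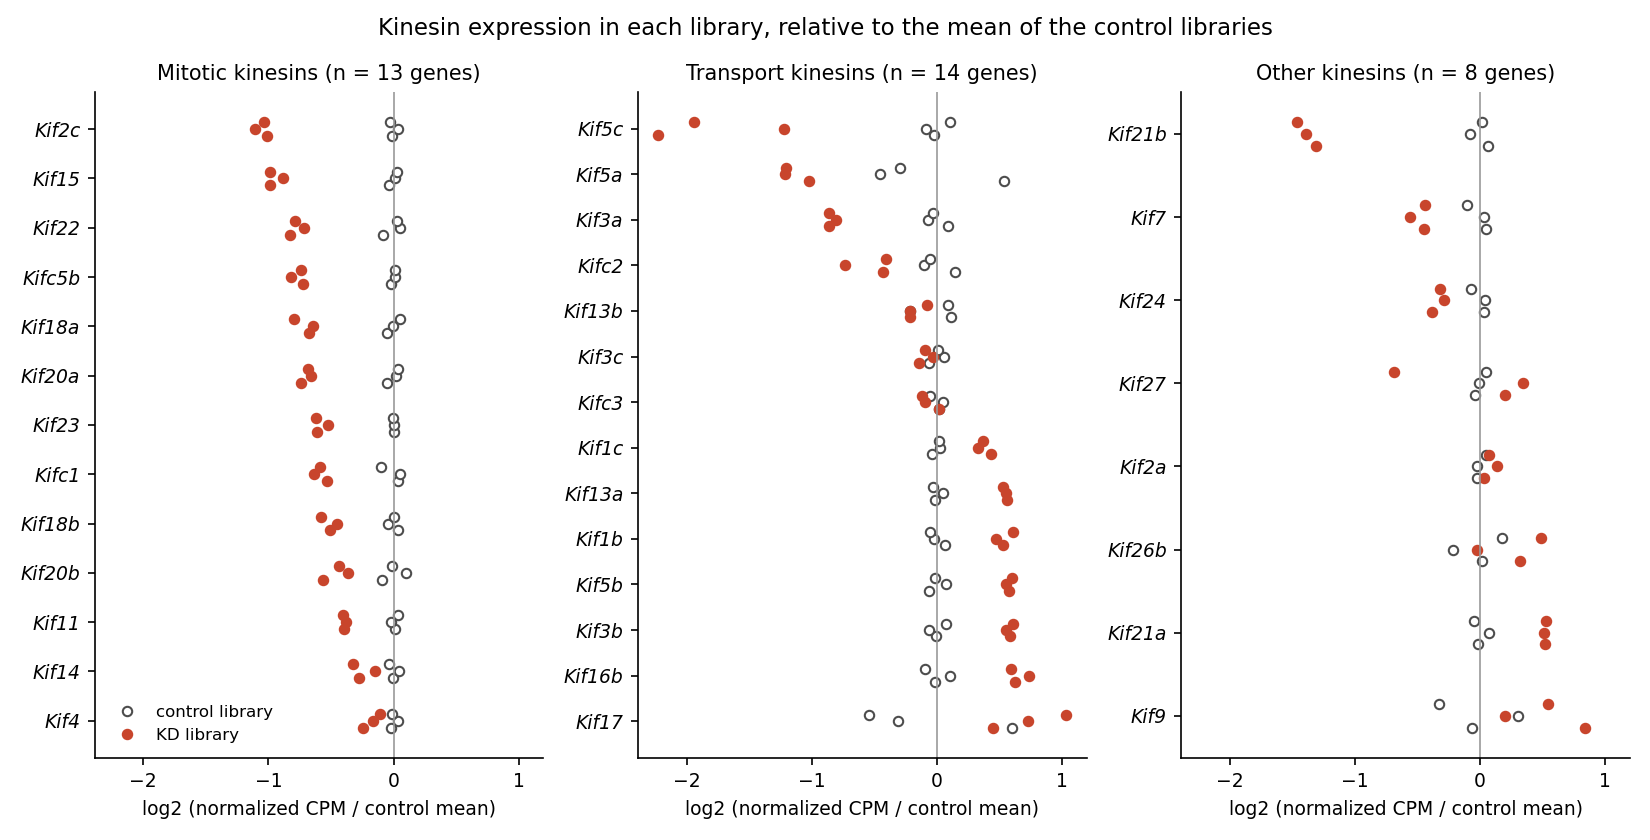
Each row is 1 of the 35 kinesins tested and each point 1 library, with the log2 of its normalized CPM over the mean of the 3 control libraries on the x axis (open, control; filled, KD). In all 13 mitotic kinesins the 3 KD libraries lie to the left of the 3 control libraries, while 6 transport kinesins lie to the right and Kif5c, Kif5a, Kif3a and Kifc2 to the left.

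Groups of libraries that did not overlap were also common over the whole table, at 37.8% of genes tested with every KD library under every control library and 37.8% the other way. All 13 mitotic kinesins had every KD library under every control library. Among the transport kinesins 4 were apart downward and 6 upward.

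The summed level of the mitotic kinesins was 1441, 1487 and 1472 normalized CPM in the control libraries and 946, 988 and 957 in the KD libraries. The sum thus changed by −34.3%, from 1467 ± 23.4 to 963 ± 21.8 (SD, n = 3 libraries each). The summed level of the transport kinesins was 869, 884 and 869 in the control libraries and 1126, 1101 and 1129 in the KD libraries, and was 1.28-fold higher (874 ± 8.99 and 1119 ± 15.1, SD, n = 3 each). Abundant members weigh most in such sums.

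**Figure D2:**
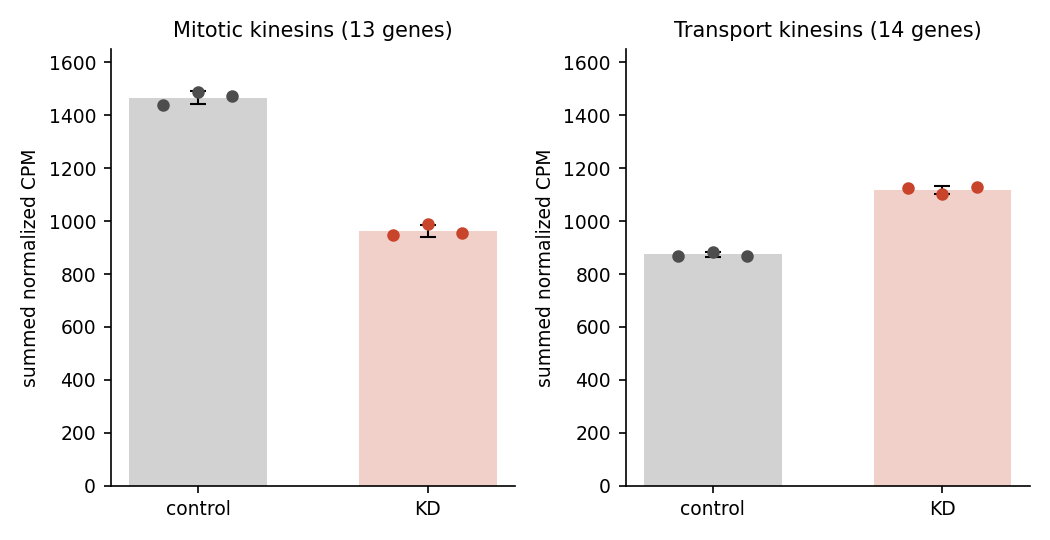
Bars give the mean summed normalized CPM of 13 mitotic and 14 transport kinesins, error bars the SD and points the 3 libraries of each group. The mitotic sum is lower in each KD library (946 to 988) than in each control library (1441 to 1487), and the transport sum is higher (1101 to 1129 against 869 to 884).

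Among the spindle motors and microtubule depolymerases, Kif2c fell most. Kif2c (MCAK) takes microtubule ends apart at centromeres and thereby corrects wrong attachments. It was at 113, 117 and 112 normalized CPM in the control libraries and at 56.6, 52.8 and 55.6 in the KD libraries, a log2 fold change of −1.05 (SE 0.05, adjusted p = 2.42e-20), the only mitotic kinesin beyond 2-fold. The groups were far apart relative to their spread. Kif18a, which dampens chromosome movements at the metaphase plate, went from 45.3, 46.8 and 48.7 to 29.3, 30 and 27 normalized CPM (−0.70, SE 0.06, adjusted p = 5.28e-12). Its relative Kif18b, which acts on astral microtubules, went from 96.6, 91.4 and 94.4 to 66, 68.8 and 62.8 (−0.51, SE 0.05). Both fell in every KD library.

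Kif11 (Eg5) pushes the spindle poles apart, and Kif15 can take over that task when Kif11 is blocked. Kif11 was at 139, 136 and 141 normalized CPM in the control libraries and at 105, 106 and 104 in the KD libraries (log2 fold change −0.40, SE 0.04, adjusted p = 7.19e-11). Kif15 fell from 111, 115 and 116 to 57.6, 61.9 and 57.5 (−0.95, SE 0.05, adjusted p = 4.03e-19). The ratio of Kif15 to Kif11 counts was 0.824 ± 0.0249 in the control libraries and 0.562 ± 0.0185 in the KD libraries (SD, n = 3), without overlap (exact permutation test, two-sided, p = 0.1, the smallest that 3 against 3 libraries allow). Kif15 thus fell further than Kif11 in every KD library.

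Kifc1 (HSET) moves toward microtubule minus ends and gathers the spindle poles, on which cells with extra centrosomes depend. It was at 69.5, 70.4 and 63.3 normalized CPM in control and 47, 43.6 and 45.2 in KD (log2 fold change −0.58, SE 0.06). Kifc5b, listed beside it, is a near copy of Kifc1 in the mouse, so reads may be split between them. Kifc5b was at 34.1, 34.8 and 34.9 and at 20.9, 19.6 and 20.7 (−0.76, SE 0.07), and the ratio of Kifc5b to Kifc1 counts was 0.512 ± 0.0337 in control and 0.452 ± 0.00733 in KD (SD, n = 3). With both summed into 1 gene, the log2 fold change was −0.64 (adjusted p = 2.79e-14).

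The chromokinesins, which bind chromosome arms and push them outward, fell by unequal amounts. Kif22 (Kid) went from 103, 113 and 111 to 61.4, 66.4 and 63 normalized CPM (log2 fold change −0.78, SE 0.05, adjusted p = 2.16e-16). Kif4, which also shortens the overlapping microtubules of the anaphase midzone, fell least of the mitotic kinesins, from 96.1, 100 and 96.6 to 82.2, 86.9 and 90.7 (−0.17, SE 0.05, adjusted p = 0.00118). Its groups did not overlap, but the highest KD library (90.7) came close to the lowest control library (96.1).

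Of the cytokinesis motors, Kif20a (MKLP2) brings Aurora B to the midzone and Kif23 (MKLP1) forms centralspindlin with Racgap1. Kif20a was at 309, 324 and 328 normalized CPM in control and at 192, 203 and 199 in KD (log2 fold change −0.69, SE 0.04, adjusted p = 1.78e-18). Kif23 was at 183, 183 and 182 and at 120, 127 and 119 (−0.58, SE 0.04, adjusted p = 1.76e-15). Each KD library was lower than each control library for both. Kif20b, which acts in late cytokinesis, was at 86.5, 98.8 and 91.8 and at 62.4, 71.9 and 68.2 (−0.45, SE 0.05). Kif14, which works with citron kinase at the midbody, was at 55, 56.9 and 54 and at 45.6, 50 and 44.1 (−0.25, SE 0.06, adjusted p = 2.38e-04). Kif14 and Kif4 were the mitotic kinesins with the smallest changes.

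Most of the genes for the proteins with which these motors work were also counted lower. Of 24 mitotic partners, 20 were lower (83.3%, beside 36.7% of all genes tested), 1 was higher (4.17%, beside 36.7%) and 3 did not pass, with a median log2 fold change of −0.35. The lowest were Bub1 (−1.34, adjusted p = 6.84e-27), a spindle checkpoint kinase, and Nusap1 (−1.02, adjusted p = 3.46e-20), a spindle-associated protein. Ccnb1, the cyclin of mitotic entry, was the 1 that rose (0.30, adjusted p = 7.53e-09), at 203 normalized CPM in control and 249 in KD. Cenpe, the kinesin-7 of kinetochores, fell by 0.74 on the log2 scale (adjusted p = 3.50e-18), with 8653, 8235 and 8558 counts in control and 4976, 5157 and 5111 in KD.

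Binding partners did not always match their kinesin in the size of the change (Prc1, Cit and Aurkb were chosen for this after their values were seen). Racgap1 had a log2 fold change of −0.11 (adjusted p = 0.00528) beside −0.58 for Kif23, and Prc1, which binds Kif4, −0.17 beside −0.17. Cit, the citron kinase, had −0.35 beside −0.25 for Kif14, and Aurkb −0.53 beside −0.69 for Kif20a. The differences between these pairs were not tested. Of 20 S phase genes, 14 were lower (70%) and 5 were higher (25%), beside 36.7% each way of all genes tested, with a median of −0.19, from Cdc6 (−0.76) and Cdc45 (−0.61) at the low end to Gins1 (0.31) and Rrm2 (1.27) at the high end.

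The mitotic kinesins also shared sequence elements at their start sites. Genes that peak late in the cell cycle often carry a CHR, a cell cycle genes homology region bound by the MuvB complexes, close to CCAAT boxes bound by NF-Y. RefSeq promoter windows of human genes (GRCh38.p14, 250 bases before to 50 after the annotated start) were searched on both strands for TTTGAA or TTCGAA, forms of the CHR, and for CCAAT. No match of the hexamers shared bases with a CCAAT match in the kinesin windows, and TTCGAA reads the same on both strands. Other forms of the CHR were not searched for, so a window without a match may still hold one. A window was found for 12 of the 13 mitotic kinesins (Kif4 as KIF4A, none for Kifc5b) and for 10 of the 14 transport kinesins. The windows are those of human genes, while the counts carry mouse gene symbols, so a window may not be the promoter of the gene counted.

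Of the 13 windows of mitotic kinesins (KIF22 has 2), 11 held a CHR hexamer (84.6%), 10 a CCAAT box (76.9%) and 9 both (69.2%). The 2 KIF22 windows overlap and hold the same hexamer. By gene, 10 of 12 held a hexamer, 10 a CCAAT box and 9 both. Of 13098 windows of genes tested here, 11.8% held the hexamer, 34.3% CCAAT and 4.77% both, and of all 35116 windows 16.4%, 34.6% and 6.38%. Of 13 windows of transport kinesins, 1 held the hexamer and CCAAT together, KIF5B, and 5 held CCAAT. In the first windows of the mitotic genes the hexamers began between 55 bases before (−55) and 30 bases after the start, and the CCAAT boxes between −131 and −22. KIF24, outside the mitotic class, held both as well.

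The following windows show the arrangement in genes that fell (KIF23, KIF11, KIFC1) and in the pair of transport partners KIF3B and KIF3A. KIF20A is shown with CCAAT boxes and no match of the hexamers searched. KIF2C is shown with no match of any motif searched, although Kif2c fell most of the mitotic kinesins. Each is written 5′ to 3′ along the gene, and capitals mark a motif on either strand (ATTGG is CCAAT and TTCAAA is TTTGAA on the other strand).
KIF23, chr15:69414099-69414398, plus strand: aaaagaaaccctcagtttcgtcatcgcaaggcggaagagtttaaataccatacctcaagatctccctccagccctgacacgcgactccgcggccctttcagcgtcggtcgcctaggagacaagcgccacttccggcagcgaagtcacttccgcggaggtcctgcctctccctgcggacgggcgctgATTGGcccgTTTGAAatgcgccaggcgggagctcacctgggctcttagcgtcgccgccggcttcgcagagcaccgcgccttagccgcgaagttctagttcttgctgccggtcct
KIF11, chr10:92592880-92593179, plus strand: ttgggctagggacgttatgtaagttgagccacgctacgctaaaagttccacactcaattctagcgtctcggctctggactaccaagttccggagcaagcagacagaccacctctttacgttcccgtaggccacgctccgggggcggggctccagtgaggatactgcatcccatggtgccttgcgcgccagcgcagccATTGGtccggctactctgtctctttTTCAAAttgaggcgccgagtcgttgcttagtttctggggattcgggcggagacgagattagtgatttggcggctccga
KIFC1, chr6:33391573-33391872, plus strand: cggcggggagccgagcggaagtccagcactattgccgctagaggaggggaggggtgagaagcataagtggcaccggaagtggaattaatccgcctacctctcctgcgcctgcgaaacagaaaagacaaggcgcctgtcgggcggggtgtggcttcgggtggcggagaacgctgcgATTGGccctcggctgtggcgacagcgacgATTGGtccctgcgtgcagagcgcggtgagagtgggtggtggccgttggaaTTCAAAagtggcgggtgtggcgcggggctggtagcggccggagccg
KIF20A, chr5:138178862-138179161, plus strand: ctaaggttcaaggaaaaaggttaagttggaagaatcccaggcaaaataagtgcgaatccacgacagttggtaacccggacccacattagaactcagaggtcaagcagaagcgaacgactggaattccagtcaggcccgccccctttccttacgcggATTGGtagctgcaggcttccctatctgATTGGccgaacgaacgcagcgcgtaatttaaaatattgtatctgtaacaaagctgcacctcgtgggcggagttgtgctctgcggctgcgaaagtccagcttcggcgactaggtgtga
KIF2C, chr1:44739587-44739886, plus strand: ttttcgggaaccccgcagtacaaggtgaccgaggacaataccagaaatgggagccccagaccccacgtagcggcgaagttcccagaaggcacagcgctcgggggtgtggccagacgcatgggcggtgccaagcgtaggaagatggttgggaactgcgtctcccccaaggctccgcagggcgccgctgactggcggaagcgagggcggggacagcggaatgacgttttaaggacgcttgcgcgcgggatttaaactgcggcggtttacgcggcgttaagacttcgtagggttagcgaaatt
KIF3B, chr20:32277401-32277700, plus strand: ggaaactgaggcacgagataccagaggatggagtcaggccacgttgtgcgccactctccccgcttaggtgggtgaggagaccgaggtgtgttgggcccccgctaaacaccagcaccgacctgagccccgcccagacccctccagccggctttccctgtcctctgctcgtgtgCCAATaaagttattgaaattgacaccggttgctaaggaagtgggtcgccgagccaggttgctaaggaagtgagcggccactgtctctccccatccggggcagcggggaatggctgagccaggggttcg
KIF3A, chr5:132737497-132737796, minus strand: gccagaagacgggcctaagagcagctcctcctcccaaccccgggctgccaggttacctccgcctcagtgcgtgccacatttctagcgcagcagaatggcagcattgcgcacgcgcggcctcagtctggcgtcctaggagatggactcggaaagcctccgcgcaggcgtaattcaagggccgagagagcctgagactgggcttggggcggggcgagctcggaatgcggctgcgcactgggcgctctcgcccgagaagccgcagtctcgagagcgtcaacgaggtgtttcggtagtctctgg

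**Figure D3:**
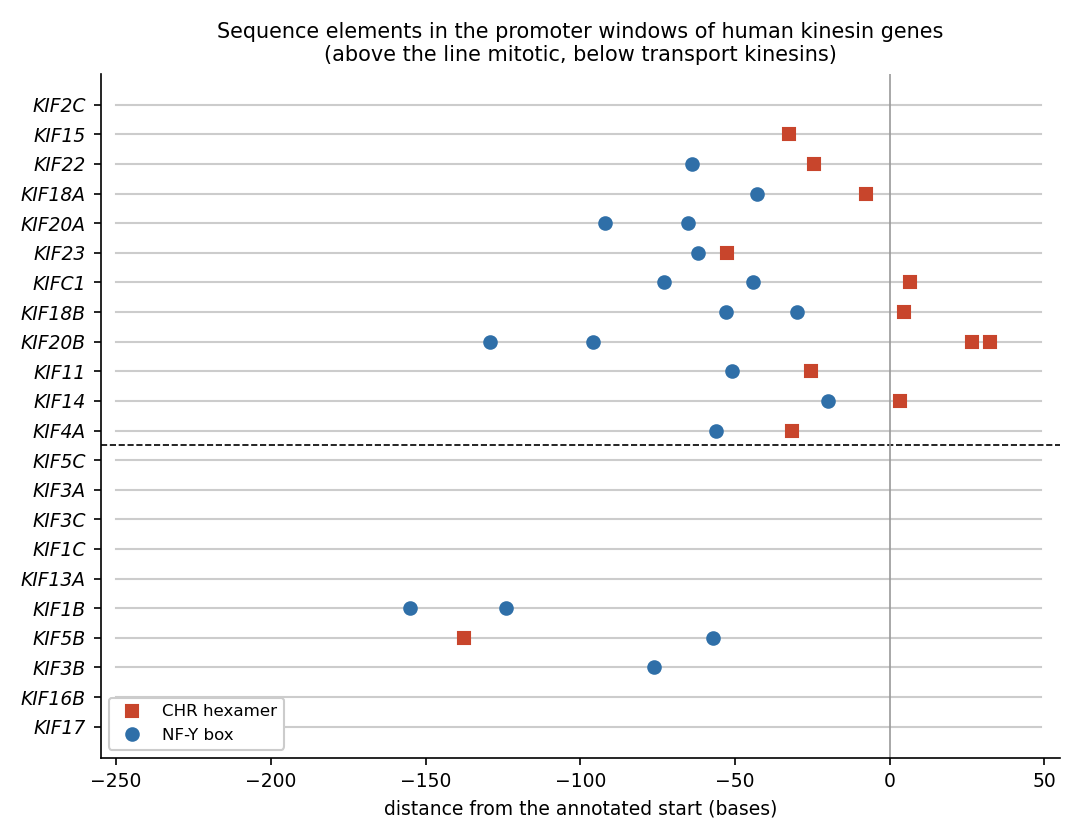
Each row is the first promoter window of a human kinesin gene, with the distance from the annotated start in bases on the x axis, squares for CHR hexamers and circles for NF-Y boxes. Hexamers lie in 10 of the 12 mitotic rows above the dashed line and in 1 of the 10 transport rows below it.

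Of the 14 transport kinesins, 6 rose (42.9%, beside 36.7% of all genes tested): Kif5b, Kif1b, Kif1c, Kif13a, Kif16b and Kif3b. Kif5b, the conventional kinesin heavy chain that moves mitochondria and lysosomes, was at 212, 234 and 220 normalized CPM in the control libraries and at 330, 325 and 337 in the KD libraries (log2 fold change 0.57, SE 0.04, adjusted p = 6.20e-16). Kif1b, a carrier of mitochondria and of synaptic vesicle precursors, went from 113, 106 and 104 to 156, 150 and 165 (0.55, SE 0.04). Kif1c, which moves vesicles and messenger RNA, went from 185, 193 and 192 to 257, 239 and 245 (0.38, SE 0.04). The endosome motors Kif16b (27.1, 29.5 and 25.6 to 42.3, 45.5 and 41.4) and Kif13a (55.4, 57.8 and 54.9 to 82.5, 82.1 and 80.8) had log2 fold changes of 0.65 (SE 0.07, adjusted p = 1.39e-10) and 0.55 (SE 0.05, adjusted p = 3.80e-12). In each of these genes, all KD libraries were above all control libraries, and none changed by 2-fold. Lung, kidney and leukocyte markers were higher in the same KD libraries, and their part in these increases was not tested.

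Of the subunits of kinesin-2, Kif3a and Kif3b moved in opposite directions, where 36.7% of all genes tested passed each way. Kinesin-2 pairs Kif3a with Kif3b or Kif3c, binds cargo through Kifap3 and drives transport into cilia. Kif3a was at 89.9, 80.6 and 82.9 normalized CPM in control and at 46.6, 48.3 and 46.4 in KD (log2 fold change −0.84, SE 0.05, adjusted p = 2.60e-16). Kif3b was at 68.4, 65.8 and 72.4 and at 103, 101 and 105 (0.58, SE 0.05, adjusted p = 2.71e-13). The values of both genes did not overlap between the groups. Kif3c was at 56.8, 61.9 and 59.6 and at 53.7, 58.1 and 55.7 (−0.09, SE 0.05, adjusted p = 0.131), and Kifap3 had a log2 fold change of 0.10 (adjusted p = 0.0782).

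Within a library, the ratio of Kif3b to Kif3a counts was 0.761, 0.816 and 0.874 in control and 2.21, 2.1 and 2.25 in KD, a 2.68-fold higher ratio. The ratio of Kif3c to Kif3a counts was 0.706 ± 0.0686 and 1.19 ± 0.0274 (SD, n = 3). Neither ratio overlapped between the groups (exact permutation test, two-sided, p = 0.1 for each of the 5 ratios computed, the smallest possible with 3 against 3, and the same value after Benjamini-Hochberg adjustment). Since Kif3a fell and Kif3b rose without overlap, their ratio had to separate the groups, and its p-value adds nothing to the results of the single genes. The counts are not scaled to gene length, so the change of a ratio between groups is interpretable and its level is not.

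**Figure D4:**
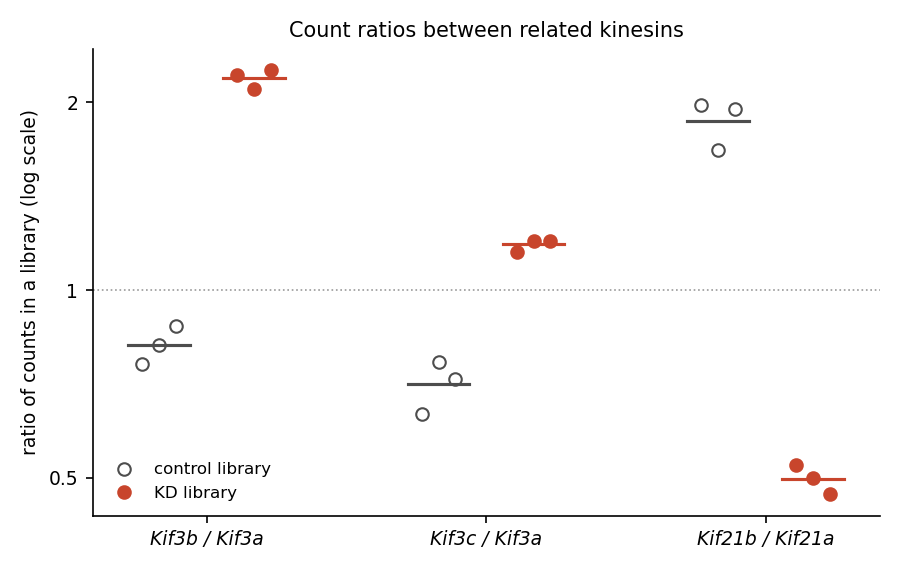
Points give the ratio of counts of a pair of related kinesins within a library (y axis, log scale; open, control; filled, KD), with a bar at the group mean. Kif3b over Kif3a rises from 0.761 to 0.874 in control to 2.1 to 2.25 in KD, and Kif21b over Kif21a falls from 1.68 to 1.98 to between 0.47 and 0.525.

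Kif5a and Kif5c, the heavy chains of kinesin-1 that are enriched in neurons, had few reads. Kif5c had 45, 43 and 49 counts in control and 10, 19 and 12 in KD (log2 fold change −1.73, SE 0.46, adjusted p = 0.00114). Kif5a had 83, 42 and 47 counts and 29, 24 and 25 (−1.14, SE 0.39, adjusted p = 0.01), and the first control library stood well above the other control libraries. Without control replicate 1 the change of Kif5a was −0.77 (adjusted p = 0.142) and did not pass. Of 10 neuron markers in the table, 1 (Map2, 0.78 on the log2 scale and higher) had enough counts to be tested. The markers not tested went both ways at low counts. Syp had 7, 14 and 20 counts in control and 5, 1 and 2 in KD, whereas Syt1 had 0 in every control library and 2, 5 and 6 in KD. The part of such cells in these results was not tested.

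The transport kinesins that did not pass were Kif3c, Kif13b (log2 fold change −0.17, adjusted p = 0.0863), Kifc2 (−0.51, adjusted p = 0.316), Kifc3 (−0.07, adjusted p = 0.38) and Kif17 (0.75, adjusted p = 0.0558). Kifc2 and Kifc3 walk toward minus ends, and Kif17 works in dendrites and cilia. Kif17 had 64, 34 and 29 counts in control and 59, 68 and 87 in KD, so that the groups overlapped through control replicate 1. Without that library its change was 1.18 (adjusted p = 0.00816), and without KD replicate 1 it was 0.89 (adjusted p = 0.0427). Kif17 also passed in DESeq2's Wald test (0.76, adjusted p = 0.0447) and with a filter of 10 counts in every library (adjusted p = 0.0282). Kif13b passed without control replicate 2 (−0.26, adjusted p = 0.0103), and with upper quartile scaling both Kif13b (−0.21, adjusted p = 0.0352) and Kif3c (−0.13, adjusted p = 0.0267) passed.

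Of 21 light chains, adaptors and regulators tested, 9 were lower (42.9%) and 8 were higher (38.1%), shares near the 36.7% each way of all genes tested, with a median log2 fold change of 0.03. The lowest were Mapk8ip1 (KD to control ratio 0.501, adjusted p = 6.00e-14), a scaffold that links JNK kinases to kinesin-1, and Klc4 (−0.70), a light chain. The highest were Plekhm2 (0.87, adjusted p = 2.47e-15), which couples lysosomes to kinesin-1, and Hap1 (2.17, adjusted p = 1.00e-23), the huntingtin-associated adaptor, at 11.3 normalized CPM in control and 50.9 in KD. Klc1, a light chain that joins Kif5b, was 0.20 higher on the log2 scale (adjusted p = 1.03e-05) and named for that link after its value was seen. The light chains did not rise together. Klc4 was lower, as given above, and Klc2 (0.03, adjusted p = 0.747) and Klc3 (0.18, adjusted p = 0.434) did not pass. Kifbp, which binds and blocks several kinesins and was also named after its value was seen, was 35.4 normalized CPM in KD and 56.3 in control (−0.67, adjusted p = 1.27e-11).

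Of the other kinesins, the pair Kif21a and Kif21b, which restrain microtubule growth, moved in opposite directions. Calls each way were common, at 36.7% of all genes tested. Kif21b was at 112, 101 and 108 normalized CPM in the control libraries and at 43.1, 40.9 and 38.9 in the KD libraries (log2 fold change −1.39, SE 0.05, adjusted p = 1.98e-22). Kif21a was at 56.7, 60.3 and 55.5 and at 82.2, 81.8 and 82.6 (0.52, SE 0.05, adjusted p = 1.95e-11). The ratio of Kif21b to Kif21a counts went from 1.87 ± 0.166 to 0.498 ± 0.0271 (SD, n = 3, exact permutation p = 0.1), a 0.266-fold change. This ratio too had to separate the groups, since Kif21b fell and Kif21a rose without overlap. Among kinesins with over 100 counts in every library, Kif21b had the largest fold change.

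Kif7, a ciliary regulator of Hedgehog signalling, was at 12.8, 12.7 and 11.5 normalized CPM in control and at 9.1, 8.42 and 9.16 in KD (log2 fold change −0.47, SE 0.11, adjusted p = 2.53e-04). Kif24, which holds back the growth of cilia at centrioles, was at 19.1, 19.2 and 17.8 and at 14.3, 15.3 and 15 (−0.33, SE 0.09, adjusted p = 0.00114). Both fell in every KD library. Kif2a, a relative of Kif2c that depolymerizes microtubules in dividing and resting cells, was at 124, 124 and 130 and at 129, 138 and 132 (0.07, SE 0.04, adjusted p = 0.105), and its groups overlapped. The unlike results of Kif2a and Kif2c thus lay within 1 subfamily.

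Kif26b, Kif9 and Kif27 did not pass, with log2 fold changes of 0.28 (adjusted p = 0.204), 0.55 (adjusted p = 0.149) and 0.02 (adjusted p = 0.955). Kif9 acts in motile cilia and had 42, 54 and 35 counts in control and 80, 49 and 64 in KD. The summed level of 15 ciliated cell markers lay between 3.66 and 3.95 normalized CPM in control and between 2.76 and 3.54 in KD. Of these, 6 were tested, with 2 lower (33.3%) and 1, Foxj1, higher (16.7%), beside 36.7% each way of all genes tested. Kif6, Kif12, Kif19a, Kif19b and Kif26a were not tested, with at most 14 counts in any library. Kif26a had 1 count in all. Kif12 had 0 counts in the control group and 1, 4 and 3 in KD, close to the 3 counts that a count of 0 allows in a library, so that a difference was not detectable at this depth.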

How the data were processed

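Per the labels and the methods, the authors trimmed adapters, mapped reads with HISAT2 (hg19 in the methods, hg38 in the submitters' processing notes, which also name featureCounts and DESeq2) and deposited raw read counts per gene. The annotation, strand setting and treatment of reads shared by paralogs are not given in the sources used here. The methods and labels name different extraction and library kits. Columns were assigned by name, and 0 were left unused.

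The deposited counts went into edgeR 4.0.16 (R 4.3.3): filterByExpr (minimum count 10, total 15), TMM scaling, quasi-likelihood test on group, Benjamini-Hochberg adjustment over 13497 genes. SE is the log2 fold change divided by the root of F. The common coefficient of variation was 5.21%. Intervals and the limit of 3 counts for a count of 0 cover counting error only. The pipeline was tested on simulated counts, unquoted. Members, classes and lists were chosen with earlier results of these data known. Named with all values were mitotic kinesins, kinesins beyond 2-fold, and the 3 largest changes each way in the other classes. Outside this rule, all values were also given for Kif1b, Kif1c, Kif13a, Kif3c, Kif17, Kif2a, Kif9 and Kif12. Of each list, the 2 lowest and 2 highest genes past the threshold were named. No protein sequences were used. Alternatives were other scalings and filters, DESeq2 1.42.0, each library left out, a replicate block and other class borders.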

Additional observations from a re-analysis of the deposited data

How the results depend on the processing

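Over all alternatives run but the threshold of a 2-fold change, the 13 mitotic kinesins stayed lower and the 7 kinesins that rose stayed higher. The mitotic count was 12 where Kifc1 and Kifc5b were summed, an alternative chosen after the data were seen. The 2-fold threshold left 4 kinesins lower and 0 higher in any class, beside 9.98% and 10.2% of all genes tested. The 4 were 1 of 13 mitotic kinesins, 2 of 14 transport kinesins and 1 of 8 other kinesins tested. At that threshold the mitotic share was thus not above that of all genes. The 2 transport kinesins, Kif5a and Kif5c, had few counts. With upper quartile scaling 5 transport kinesins were lower, and the class medians were −0.62 (mitotic) and 0.11 (transport), since that scaling lowered all genes (median −0.047 against −0.006). The mitotic median was −0.60 with library size alone and −0.61 with Kifc1 and Kifc5b summed. The median of the other kinesins was 0.28 without a low-count filter and 0.15 with Kif2a and Kif24 counted as mitotic. With that border the mitotic class was not lower throughout. Kif24 was lower, but Kif2a did not pass (log2 fold change 0.07, adjusted p = 0.105, edgeR's quasi-likelihood test), and the mitotic median was −0.58. With each library left out, the medians ranged from −0.63 to −0.57 (mitotic), 0.15 to 0.19 (transport) and −0.05 to 0.13 (other, below 0 without KD replicate 2), and the difference of mitotic and transport medians from −0.79 to −0.73. Kif27 changed sign with upper quartile scaling (−0.02), with the replicate block (−0.03), without control replicate 1 (−0.00), and without KD replicate 1 (−0.08) or 2 (−0.16), never past the threshold. Of 489 values for single kinesins, 476 kept direction and side of the threshold. The labels number replicates 1 to 3 in both groups, but same-numbered libraries did not deviate together (correlations 0.0135, −0.0194 and −0.0202 over genes). With the replicate block 19 kinesins were lower and 7 higher, as without it, and no call of a kinesin changed. Kinesins under about 100 counts (Kif5a, Kif5c, Kif9, Kif17, Kif27, Kifc2) had standard errors of 0.29 to 0.46, against 0.04 to 0.11 for all others but Kif26b (0.20).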

Other observations

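Cytoplasmic dynein moves against most kinesins, toward microtubule minus ends. Of 23 dynein and dynactin genes tested, 11 were lower (47.8%) and 7 were higher (30.4%) in KD, beside 36.7% each way of all genes tested, and the median change was −0.22 on the log2 scale. The heavy chain Dync1h1 rose from 782 to 1081 normalized CPM (0.47, adjusted p = 5.20e-15, edgeR's quasi-likelihood test), and the cargo adaptor Bicd1, with 16 to 69 counts, rose by 1.61. Dynlt1f (−0.66) and Dynlrb1 (−0.53), light chains, were the lowest, and Dynlt1f was at 1440 counts in 1 control library and at 760 and 768 in the others.

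Of 21 transcription factors of late cell cycle genes, 8 were lower and 8 higher (38.1% each), about the share of all genes tested (36.7% each way), with a median of 0.02. Lin37 (−0.85, adjusted p = 8.83e-07) and Lin52 (0.88, adjusted p = 6.40e-06), both subunits of the MuvB complexes that bind the CHR, had the lowest and the highest change of the list, followed by Rbl2 (−0.79) and the NF-Y subunit Nfyc (0.73). Foxm1, a driver of mitotic genes, had −0.18 (adjusted p = 3.35e-05) and Mybl2 −0.03 (adjusted p = 0.546), both named after their values were seen.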
